A study of Mus musculus with 9 samples.

Results

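Heat shock chaperones hold, fold and sort other proteins. Here 43 such genes of the cytosol and mitochondria were followed, taken from a list of symbols drawn up with earlier results of these data known. They were among 54838 genes counted in 9 RNA-seq libraries of mouse cells, untreated or given hypochlorous acid (HOCl), the oxidant that neutrophil myeloperoxidase makes. All 43 symbols were found, and they fell into 10 families: HSF transcription factors, HSP70, HSP110, small heat shock proteins, HSP90, the mitochondrial chaperonin, J proteins, BAG factors, partners of HSP90 and the CCT chaperonin. B16F10 is a melanoma line of C57BL/6 mice, and T cells were CD8+ cells that an isolation kit drew from spleen of adult mice of the same strain. The groups were B16F10 left 5 h in medium without HOCl (3 libraries), B16F10 left 5 h with 600 µM HOCl (3), untreated T cells (2) and T cells given 600 µM HOCl for the same time (1). The B16F10 plates had been seeded 4 days earlier. No genetic change is named for any group. Whether libraries of a group are separate cultures or animals is not stated. The p-values below therefore measure the spread among the libraries at hand, and that spread may be technical.

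In the heat shock response, unfolded proteins draw chaperones away from the transcription factor HSF1, which then forms trimers, binds heat shock elements (inverted repeats of GAA and TTC) and raises HSP70, HSP110, J protein, HSP90 and small heat shock protein genes together. J proteins hand clients to HSP70, nucleotide exchange factors of the HSP110 and BAG families release them, and HSP90 finishes many kinases and steroid receptors with its partners. Small heat shock proteins hold unfolding proteins without ATP, CCT folds actin and tubulin in the cytosol, and HSP60 with HSP10 folds proteins imported into mitochondria.

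The promoters are shown first because the results turn on the inducible HSP70 pair and on Hspb1, and because heat shock elements are the family's common sequence feature. Each upstream stretch below is the 250 bases before the start of the RefSeq transcript (GRCm38.p6), written 5′ to 3′ on the gene's strand, with 2-unit heat shock element letters, GAANNTTC or TTCNNGAA, in capitals. Each of these motifs is its own reverse complement, so both strands were searched at once. They are Hspa1a at chr17:34972157-34972406 and Hspa1b at chr17:34959239-34959488, both on the minus strand, and Hspb1 at chr5:135887669-135887918 on the plus strand.
Hspa1a: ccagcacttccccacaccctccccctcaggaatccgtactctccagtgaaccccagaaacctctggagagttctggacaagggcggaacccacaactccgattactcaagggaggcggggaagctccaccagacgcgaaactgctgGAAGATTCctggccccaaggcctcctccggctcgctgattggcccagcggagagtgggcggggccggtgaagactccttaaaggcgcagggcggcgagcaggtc
Hspa1b: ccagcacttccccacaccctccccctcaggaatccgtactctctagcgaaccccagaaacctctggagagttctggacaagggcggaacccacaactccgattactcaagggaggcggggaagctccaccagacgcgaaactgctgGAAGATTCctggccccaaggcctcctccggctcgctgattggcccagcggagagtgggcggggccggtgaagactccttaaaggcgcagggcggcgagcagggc
Hspb1: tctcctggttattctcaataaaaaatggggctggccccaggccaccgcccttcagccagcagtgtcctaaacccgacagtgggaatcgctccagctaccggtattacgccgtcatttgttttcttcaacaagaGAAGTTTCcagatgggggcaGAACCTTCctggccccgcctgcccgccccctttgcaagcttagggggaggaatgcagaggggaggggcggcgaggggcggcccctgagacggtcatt
The Hspa1a and Hspa1b stretches differed at 3 of 250 bases, and both carried the same match 104 bases before the start. Hspb1 had a match 117 and another 97 bases before its start.

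Longer elements, a 2-unit match extended by any 2 bases and a further unit in the alternating direction, were found in 5 member genes. They are shown as 28-base windows on the gene's strand, with the element in capitals, because they are the clearest heat shock element letters among the members. The windows lie at chr9:18292261-18292288 for Chordc1 and chr5:29735845-29735872 for Dnajb6 (both plus strand), at chr5:149636280-149636307 for Hsph1 (minus strand), and at chr1:55088054-55088081 for both Hspd1 (minus strand) and Hspe1 (plus strand), which start on either side of 1 shared element.
Chordc1: cgGAACGTTCGGGAAAATTCCTGAAgca
Dnajb6: gctccgaGAATCTTCCGGAAcgctagac
Hsph1: ctgcagaTTCTGGAAAGTTCtcctcagt
Hspd1: gggccTTCCGGAAGGTTCTAGAAcggac
Hspe1: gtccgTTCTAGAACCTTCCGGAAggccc
Of the 43 members, 35 had a promoter in the RefSeq table, taken as 250 bases before to 50 bases after the start. A 2-unit match stood in 16 of these 35 genes (45.7%), against 17.0% of 27025 genes in the table. The longer form, which always contains a 2-unit match, stood in 5 of 35 (14.3%), against 0.662% of all genes. These are matches of letters and are given as a description.

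Depth was 45.9 to 61.3 M gene counts in B16F10, and 49.9 and 52.1 M in the untreated T cells. Levels are counts per M of a library's total (CPM), and a gene at 0 could stand at up to 3 counts, which is 0.0489 to 0.0654 CPM in these 8 libraries. The 7 melanocyte markers (Tyr, Pmel and others) summed to between 24000 and 25100 CPM in B16F10, and the 7 T cell markers (Cd3e, Cd8a and others) to 2670 and 2610 CPM in untreated T cells. T cell markers summed to 24.4 CPM in B16F10 HOCl replicate 3, against 4.32 to 6.04 CPM in the other 5 B16F10 libraries. The library labelled T cell HOCl stood apart: it held 12.8 M counts (floor 0.234 CPM), detected 44225 genes where the others detected 22855 to 25907, drew 37.4% of its counts from mitochondrially encoded genes against 2.11% or less elsewhere, and its melanocyte markers summed to 6710 CPM.

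In B16F10 cells given HOCl, 6 chaperone genes rose (14%) and 7 fell (16.3%), with small shifts, beside 14.7% and 13.5% of all genes. Hspb1 and Hspb8 of the small heat shock proteins, the J protein genes Dnajb2, Dnaja3 and Dnajb6 and the mitochondrial HSP70 gene Hspa9 rose, from 1.1-fold to 1.43-fold. The constitutive HSP70 gene Hspa8, its ribosome-bound relative Hspa14, both mitochondrial chaperonin genes (Hspd1 and Hspe1), the HSP90 partners Cacybp and Fkbp4 and the CCT subunit gene Cct5 fell, by 1.13-fold to 1.21-fold. The remaining 30 of 43 did not pass the test, among them both genes of the inducible HSP70 pair, Dnajb1, Hsph1, Bag3, both cytosolic HSP90 genes and Hsf1. All 43 members passed the filter on low counts.

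Testing used the quasi-likelihood test of edgeR, with p-values adjusted by Benjamini and Hochberg over 16082 genes and a threshold of 0.05 on the adjusted p. By it 6 members were higher (14%) and 7 lower (16.3%), beside 14.7% of all genes higher and 13.5% lower, so the members' shares stood near the background. Their median log2 fold change was -0.05, and their median absolute log2 fold change was 0.10 against 0.20 over all genes tested. Members and all genes were not matched for level, and estimates at low counts are less exact, as for Hspa1a below (SE 0.36). CPM ranges of the HOCl and untreated libraries did not overlap for 24 members (55.8%), 15 higher and 9 lower, beside 43.6% of all genes. With library totals in place of TMM scaling the split was 9 higher and 5 lower, beside 16.9% of all genes higher and 11.2% lower. With all 9 libraries in 1 edgeR fit 0 members passed (smallest adjusted p 0.24) and 3 had an unadjusted p under 0.05; of the 34290 genes in that fit, 11 were higher and 26 lower. DESeq2, run on the 6 B16F10 libraries, called 6 higher and 7 lower, beside 17.2% and 15.5% of all genes. In the authors' deposited table for B16F10, which does not name its groups by treatment, 6 members were higher and 7 lower at an adjusted p under 0.05, the same 13 genes with the same sign.

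**Figure D1:**
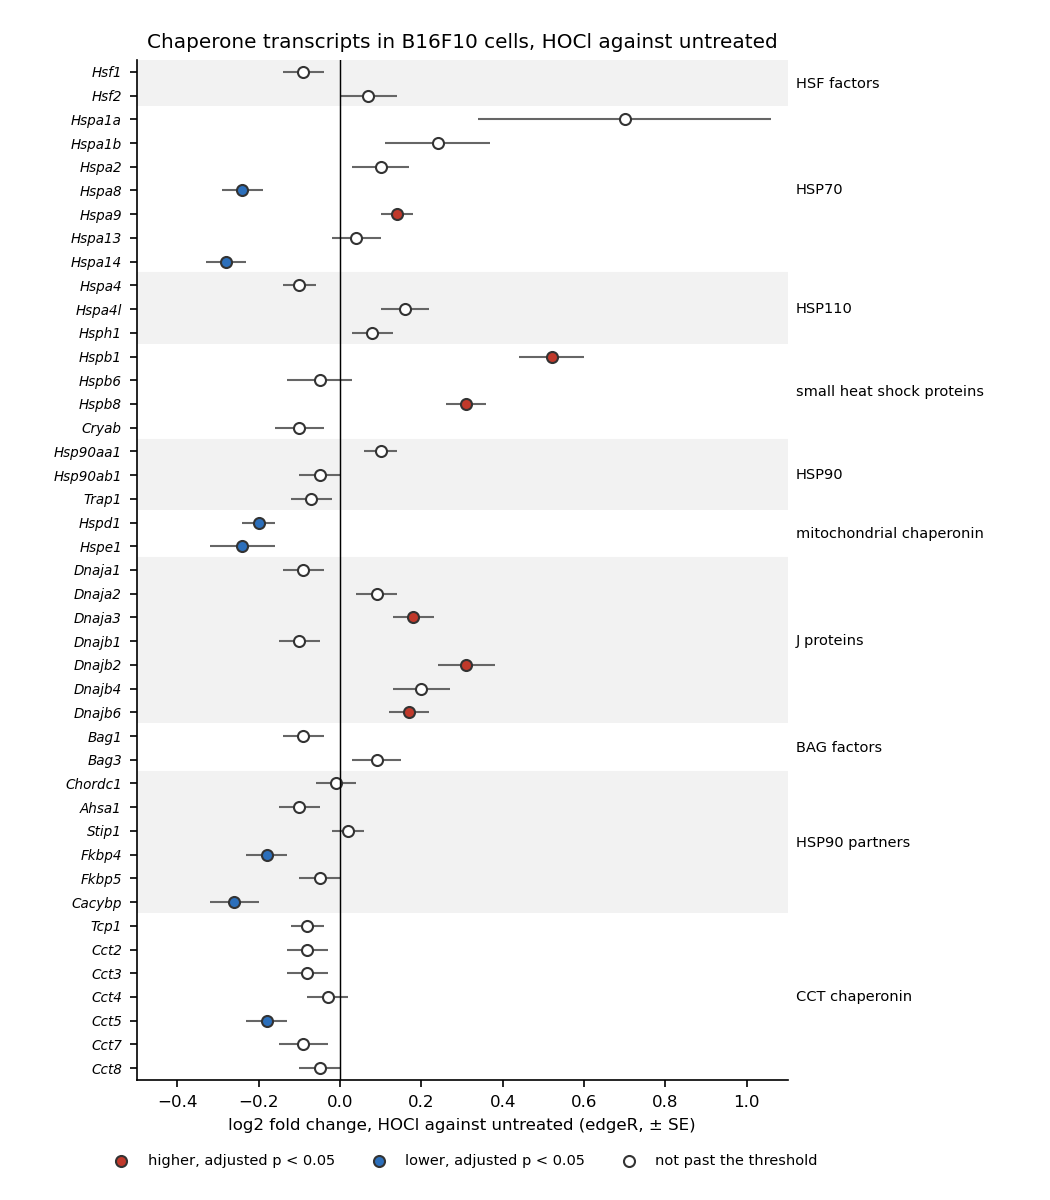
Log2 fold change (horizontal axis, edgeR, HOCl against untreated, 3 libraries per group) of each of the 43 chaperone genes in B16F10, by family. Points are the estimates, bars ± SE, and colour marks an adjusted p under 0.05; most points lie within 0.3 of 0, with Hspb1 at 0.52 furthest right among the coloured ones and Hspa1a at 0.70 with the widest bar.

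Hsf1 encodes the master factor of the response, whose activity is set by the protein's state more than by its mRNA. Its CPM was 85.6, 83.3 and 86.5 untreated and 82.9, 81.5 and 80.8 with HOCl. The HOCl values lay just under the untreated ones without overlap, and the difference did not pass the test (log2 fold change -0.09 ± 0.05, SE; adjusted p = 0.203 by edgeR). Hsf2, a related factor that can pair with HSF1, stood at 26.7, 26.3 and 23.9 untreated and 27.1, 26.8 and 28.3 CPM with HOCl (adjusted p = 0.485 by edgeR). By edgeR 0 of these 2 factors passed, 0 had an unadjusted p under 0.05, and DESeq2 called 0.

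Hspa1a (ENSMUSG00000091971, chr17:34969190-34972156, GRCm38) and Hspa1b (ENSMUSG00000090877, chr17:34956436-34959238) encode the stress-inducible HSP70 and are the classical readout of HSF1. Their coding sequences are 99.6% identical, with 8 mismatches over 1926 bases and a longest identical run of 638 bases, so reads can be split between them or dropped, depending on how the counting treated reads that fit both. Hspa1b stood at 18.4, 16.6 and 18.5 CPM untreated and at 24.5, 23.4 and 16.5 CPM with HOCl. Replicates 1 and 2 of HOCl were above every untreated library and replicate 3 was below them. The log2 fold change was 0.24 ± 0.13 (SE), with an adjusted p of 0.198 by edgeR. That library decides the call: without HOCl replicate 3 the value was 0.40 and passed (edgeR, adjusted p = 0.00798), and without replicate 1 it was 0.13 (adjusted p = 0.531). Without a filter on low counts Hspa1b also passed (edgeR, adjusted p = 0.0241).

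Hspa1a was counted 26, 15 and 20 times in untreated and 42, 34 and 23 times in HOCl libraries, which is 0.424, 0.315 and 0.436 against 0.857, 0.647 and 0.448 CPM. Its groups did not overlap, but HOCl replicate 3 lay just above the highest untreated value, and the log2 fold change of 0.70 ± 0.36 did not pass (adjusted p = 0.172 by edgeR). Added into 1 gene, the pair stood at 18.8, 16.9 and 18.9 CPM untreated and 25.4, 24.1 and 16.9 CPM with HOCl. The sum had a log2 fold change of 0.25 ± 0.13 and an adjusted p of 0.183 by edgeR. In B16F10, Hspa1a took 1.86 to 3.38% of the pair's counts.

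**Figure D2:**
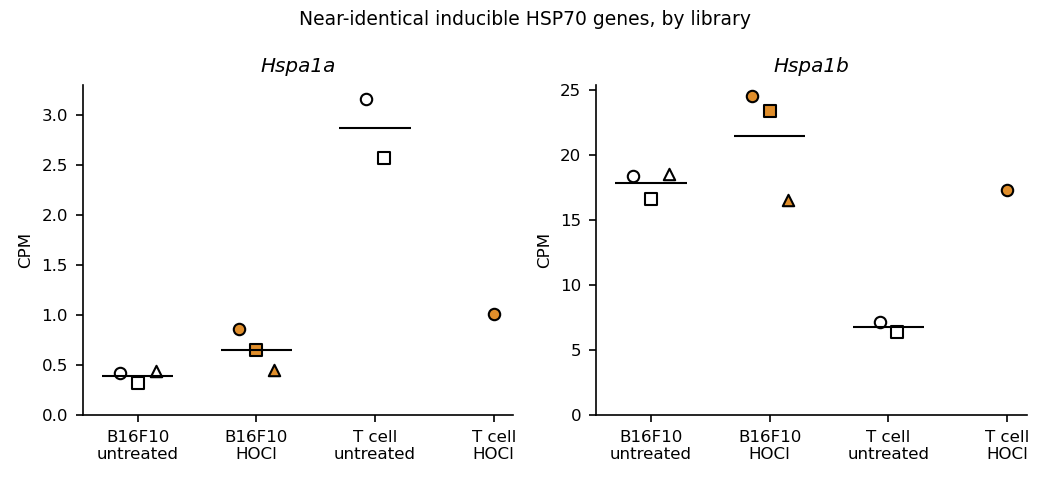
CPM (vertical axes, linear, different scales) of Hspa1a and Hspa1b in each of the 9 libraries; open symbols are untreated, filled symbols HOCl, circles, squares and triangles mark replicates 1, 2 and 3, and lines are group means. Hspa1b of B16F10 HOCl replicate 3, at 16.5, sits with the untreated libraries, while replicates 1 and 2 sit above them, and Hspa1a is highest in untreated T cells.

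Hspa8 (ENSMUSG00000015656, chr9:40800984-40810087) encodes HSC70, the abundant HSP70 of unstressed cells. It went from 2914, 2922 and 2874 CPM untreated to 2468, 2614 and 2426 CPM with HOCl. Each HOCl library lay below each untreated one, and the fall was 1.18-fold (log2 fold change -0.24 ± 0.05, adjusted p = 0.00216 by edgeR). Hspa8 made up most of the summed level of the 7 HSP70 genes, which was 4061 ± 25.3 CPM untreated and 3777 ± 88.3 CPM with HOCl (mean ± SD over 3 libraries), a description with no test.

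Hspa14 works with the J protein DNAJC2 at the ribosome, where new chains emerge. Exons of Gm45902 overlap it, as those of 3 small nucleolar RNA genes overlap Hspa8 and those of Gm20481 overlap Hspa1a, and reads there cannot be told apart. Hspa14 fell from 74.7, 69.2 and 69.5 to 59.8, 60 and 59.7 CPM, a log2 fold change of -0.28 ± 0.05 (adjusted p = 0.00226 by edgeR). Hspa9 encodes mortalin, the HSP70 that pulls proteins into the mitochondrial matrix. It rose from 941, 970 and 968 to 1058, 1066 and 1110 CPM, a log2 fold change of 0.14 ± 0.04 (adjusted p = 0.029 by edgeR). The Hspa9 groups did not overlap, but its call ended in 5 of the 6 fits that left out 1 library (adjusted p up to 0.141 by edgeR) and held without untreated replicate 1. Hspa2, best known from the testis, had a mean of 15.0 untreated and 16.4 CPM with HOCl, and Hspa13, an HSP70 relative known from microsomes and so not cytosolic or mitochondrial, 93.3 and 97.7 CPM. Neither passed (adjusted p = 0.321 and 0.636 by edgeR).

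HSP110 proteins reload HSP70 with ATP. Hsph1, the heat-inducible member, stood at 415, 436 and 438 CPM untreated and 455, 477 and 460 CPM with HOCl. The HOCl values were higher without overlap, with a log2 fold change of 0.08 ± 0.05 that did not pass (adjusted p = 0.197 by edgeR). Hspa4l had 0.16 ± 0.06 (adjusted p = 0.0642) and Hspa4 -0.10 ± 0.04 (adjusted p = 0.0929), also without overlap. By edgeR 0 of the 3 passed, 2 had an unadjusted p under 0.05, and DESeq2 called 0. Hspa4l passed with library totals in place of TMM, with the replicate number as a block, and without untreated replicate 2, and Hspa4 without untreated replicate 1.

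Among J proteins, Dnajb2, Dnaja3 and Dnajb6 rose (42.9%, beside 14.7% of all genes higher) and 4 of 7 did not pass. Shares of families this small rest on a few genes. Dnajb2, whose product also binds ubiquitin and sorts clients to the proteasome, went from 74.3, 60.8 and 69.6 to 84.5, 88.6 and 85.0 CPM. That was 1.24-fold (log2 fold change 0.31 ± 0.07, adjusted p = 0.00635 by edgeR). Dnajb6, known for keeping polyglutamine proteins soluble, went from 118, 122 and 124 to 140, 140 and 137 CPM (log2 fold change 0.17 ± 0.05, adjusted p = 0.0152 by edgeR). Dnaja3, a J protein of the mitochondrial matrix, went from 93.2, 91.5 and 94.9 to 108, 105 and 109 CPM (0.18 ± 0.05, adjusted p = 0.0137 by edgeR). In all 3 genes every HOCl library exceeded every untreated one. Exons of Gm5129 overlap Dnajb6, and exons of Coro7 and Vasn overlap Dnaja3.

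Dnajb1, HSP40, is the J protein gene most tied to HSF1. It stood at 115, 110 and 111 CPM untreated and at 110, 107 and 101 CPM with HOCl. The groups overlapped and the estimate was below 0 (log2 fold change -0.10 ± 0.05, adjusted p = 0.149 by edgeR). Dnaja1 had -0.09 ± 0.05, Dnaja2 0.09 ± 0.05 and Dnajb4 0.20 ± 0.07, with adjusted p-values of 0.194, 0.187 and 0.0579 by edgeR. Dnajb4 passed with library totals, without a filter, with the replicate block, and without untreated replicate 2. Leaving out HOCl replicate 1 ended the calls of Dnaja3 and Dnajb6, leaving out HOCl replicate 3 that of Dnaja3, and leaving out HOCl replicate 2 that of Dnajb6.

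BAG3 links HSP70 to small heat shock proteins, mainly HSPB8, for removal of clients by autophagy, and its gene is a sensitive HSF1 target. Bag3 stood at 98.7, 97.4 and 91.6 CPM untreated and at 101, 110 and 99.8 CPM with HOCl. The HOCl values were higher by a narrow margin without overlap, and the log2 fold change of 0.09 ± 0.06 did not pass (adjusted p = 0.287 by edgeR). Bag1 had a mean of 180 ± 8.38 CPM untreated and 172 ± 7.55 CPM with HOCl (adjusted p = 0.225 by edgeR). By edgeR 0 of these 2 passed, 0 had an unadjusted p under 0.05, and DESeq2 called 0.

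The largest rise among members that passed was in the small heat shock proteins. Hspb1 (ENSMUSG00000004951, chr5:135887919-135889563), which encodes the actin-binding HSP25 or HSP27, stood at 81.1, 66.9 and 66.1 CPM untreated and at 109, 108 and 95.8 CPM with HOCl. Every HOCl library lay above every untreated one, a 1.43-fold rise (log2 fold change 0.52 ± 0.08, adjusted p = 7.66e-04 by edgeR). Hspb8 (ENSMUSG00000041548, chr5:116408491-116422864), the partner of BAG3, rose 1.24-fold, from 96.5, 88.0 and 88.9 to 114, 120 and 112 CPM (0.31 ± 0.05, adjusted p = 0.00155 by edgeR). Both calls held with any 1 library left out, with log2 fold changes of 0.47 to 0.63 and 0.27 to 0.36.

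Cryab, αB-crystallin, is the most abundant of the 4 per kb of exon and is heat-inducible too. Its mean was 437 ± 28.6 CPM untreated and 416 ± 15.1 CPM with HOCl, with overlapping ranges and a log2 fold change of -0.10 ± 0.06 (adjusted p = 0.215 by edgeR). Hspb6 had 12.5 ± 0.946 and 12.3 ± 0.408 CPM (adjusted p = 0.725 by edgeR). So 2 of 4 small heat shock genes rose (50%, beside 14.7% of all genes higher) and 2 did not pass. Exons of Hspb2 on the opposite strand overlap Cryab, and because the strand setting of the counting is not given, reads from the pair cannot be told apart.

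**Figure D3:**
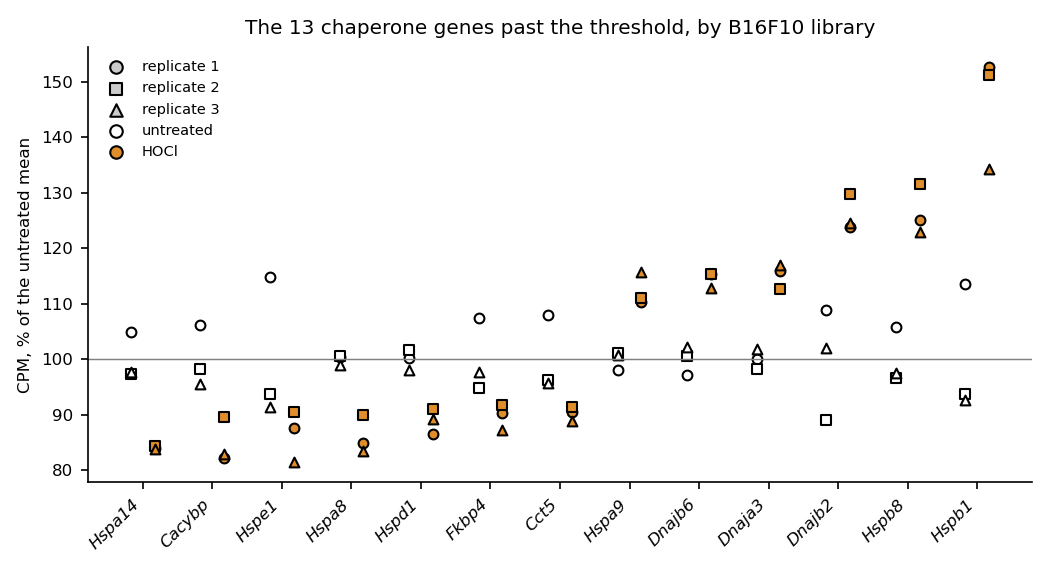
CPM of the 13 chaperone genes past the threshold in each B16F10 library, as a percentage of the gene's untreated mean (vertical axis, linear); open symbols are untreated, filled symbols HOCl, and circles, squares and triangles mark replicates 1, 2 and 3. Open and filled symbols do not overlap in any of the 13 genes, and untreated replicate 1 is the highest of its group in Hspb1, Hspb8, Dnajb2, Hspa14, Cacybp, Hspe1, Fkbp4 and Cct5.

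Hsp90aa1 and Hsp90ab1 encode the cytosolic HSP90 proteins. Hsp90aa1, the inducible form, stood at 2731, 2657 and 2577 CPM untreated and at 2834, 2954 and 2917 CPM with HOCl. The HOCl values were higher without overlap, and the log2 fold change of 0.10 ± 0.04 did not pass (adjusted p = 0.111 by edgeR). It passed with library totals in place of TMM (0.13, adjusted p = 0.0433 by edgeR) and without untreated replicate 1 (0.13, adjusted p = 0.00254). Hsp90ab1, the constitutive form, stood at 4279, 3815 and 3896 CPM untreated and 3922, 4016 and 3868 CPM with HOCl, with overlapping ranges (log2 fold change -0.05 ± 0.05, adjusted p = 0.518 by edgeR). Trap1, the mitochondrial HSP90, had 168 ± 3.92 and 163 ± 2.89 CPM (adjusted p = 0.249 by edgeR). By edgeR 0 of the 3 passed, 1 had an unadjusted p under 0.05, and DESeq2 called 0.

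Of the 6 partners of HSP90, 2 fell (33.3%, beside 13.5% of all genes lower) and 4 did not pass. Fkbp4, FKBP52, which readies steroid receptors, went from 1444, 1274 and 1313 to 1214, 1233 and 1172 CPM (log2 fold change -0.18 ± 0.05, adjusted p = 0.0246 by edgeR). Its ranges did not overlap, but the call ended without untreated replicate 3 and without any 1 HOCl library (adjusted p up to 0.115). Cacybp, which binds HSP90 and ubiquitin ligases, went from 159, 147 and 143 to 123, 134 and 124 CPM (-0.26 ± 0.06, adjusted p = 0.00421 by edgeR). The others were Stip1 (HOP, the bridge from HSP70 to HSP90) with a log2 fold change of 0.02, the ATPase activator Ahsa1 with -0.10, Fkbp5 with -0.05 and Chordc1 with -0.01, with adjusted p-values of 0.169 to 0.929 by edgeR.

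Both subunit genes of the mitochondrial chaperonin fell, beside 13.5% of all genes lower. Hspd1 (ENSMUSG00000025980, chr1:55077835-55088243, minus strand), which encodes HSP60, went from 1562, 1584 and 1526 to 1349, 1418 and 1390 CPM. That was a log2 fold change of -0.20 ± 0.04 (adjusted p = 0.00573 by edgeR). Hspe1 (ENSMUSG00000073676, chr1:55088132-55091307, plus strand), which encodes HSP10, went from 460, 375 and 366 to 351, 362 and 326 CPM. The Hspe1 groups came as close as 366 and 362 CPM, and untreated replicate 1 stood well above the rest (-0.24 ± 0.08, adjusted p = 0.0497 by edgeR). The Hspe1 call ended without any 1 HOCl library, with DESeq2's size factors and with library totals (adjusted p up to 0.169). Without untreated replicate 1 the log2 fold change of Hspe1 was -0.12 and still passed (adjusted p = 0.0203 by edgeR). Exons at the 5′ ends of both genes overlap on opposite strands, so reads there cannot be told apart.

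Of the 7 CCT genes, 1 fell (14.3%, near the 13.5% of all genes lower) and 6 did not pass. Their log2 fold changes lay between -0.18 and -0.03 with a median of -0.08, against -0.01 over all genes. With library totals the median was -0.05, against 0.02 over all genes. In that fit 0 passed by edgeR and all 7 values were still below 0. The share of all genes below 0 was not counted. Untreated replicate 1 was the highest untreated library in all 7, and without it 6 of 7 values lay below 0, the median was -0.02 and 1 passed. Cct5 went from 577, 514 and 512 to 484, 488 and 475 CPM (-0.18 ± 0.05, adjusted p = 0.0298 by edgeR). Without untreated replicate 1 its log2 fold change was -0.11 and still passed (adjusted p = 0.00966 by edgeR). The Cct5 call ended without any 1 HOCl library and with library totals in place of TMM (adjusted p = 0.0563 by edgeR). Subunits of 1 complex are not replicates. Summed, the 7 stood at 4301, 3920 and 3940 CPM untreated and at 3898, 3944 and 3828 CPM with HOCl, with overlapping ranges.

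A list of 59 further chaperone and cochaperone genes gave 5 higher and 13 lower of 55 tested (9.09% and 23.6%, beside the 14.7% and 13.5% of all genes above). The 7 genes listed as mitochondrial partners and proteases held 3 of the 5 rises and no fall. Mitochondrial genes listed elsewhere did fall, namely Dnajc19 below and the members Hspd1 and Hspe1. Grpel2, a nucleotide exchange factor of Hspa9's product, rose from 37.3, 40.1 and 40.5 to 51.8, 53.0 and 52.5 CPM (log2 fold change 0.39 ± 0.06, adjusted p = 3.48e-04 by edgeR). Bag5, an exchange factor of cytosolic HSP70, had 0.24 ± 0.05 (adjusted p = 0.00414) and Clpx, the unfoldase of the ClpXP protease, 0.19 ± 0.06 (adjusted p = 0.0349). Hspb2, which overlaps Cryab, fell from 15.4, 11.8 and 12.5 to 9.31, 10.2 and 8.84 CPM (-0.52 ± 0.11, adjusted p = 0.00463 by edgeR). Dnajc19, a J protein of the mitochondrial import motor, and Pfdn1, a subunit of the prefoldin that feeds CCT, had -0.30 ± 0.08 and -0.30 ± 0.07 (adjusted p = 0.0145 and 0.00507 by edgeR). Dnajc2, the partner of Hspa14's product and chosen here after its value was seen, fell with it, at -0.20 ± 0.06 (adjusted p = 0.0215 by edgeR).

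Untreated B16F10 and T cells differed far more than HOCl and untreated B16F10 cells did, in these genes and over all genes. The median absolute log2 difference between the cell types was 1.31 in members and 1.68 over all genes tested. Between HOCl and untreated B16F10 it was 0.10 and 0.20, as given above. By the edgeR test over 18352 genes, 32 members were higher in B16F10 (74.4%, beside 35.8% of all genes) and 3 lower (6.98%, beside 35.4%), with a median log2 difference of 1.30 against -0.02 over all genes. Members took 2.23 to 2.36% of all counts in untreated B16F10 and 0.531 and 0.722% in untreated T cells. Cell type, source (a cultured line against cells fresh from spleen) and preparation cannot be told apart in this comparison. It rests on 2 T cell libraries that differed from each other, for instance at 690 and 1263 CPM for Hspa8 and at 68.6 and 182 CPM for Hspe1.

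Cryab, Hspb8 and Hspb1, 3 of the 4 small heat shock genes, stood furthest apart, while Hspb6 had a log2 difference of 0.78 ± 0.24, under the median of the members. Cryab was at 468, 429 and 412 CPM in B16F10 and at 0.921 and 0.288 CPM in T cells (log2 difference 9.27 ± 0.52, adjusted p = 3.72e-05 by edgeR). Hspb8 had 8.29 ± 0.43, from 0.381 and 0.115 CPM in T cells, and Hspb1 5.72 ± 0.24, from 1.08 and 1.19 CPM. Hspa2 (4.00 ± 0.31), Hspd1 (3.87 ± 0.23), Hsp90aa1 (3.71 ± 0.24), Fkbp4 (3.10 ± 0.23) and Bag3 (3.10 ± 0.18) followed, all with adjusted p-values of 1.17e-04 or less by edgeR.

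Of the 43 members, 3 were lower in B16F10 and 8 did not pass. Dnajb1 stood at 115, 110 and 111 CPM in B16F10 and 104 and 112 CPM in T cells (log2 difference -0.20 ± 0.14, adjusted p = 0.24 by edgeR). With library totals the log2 difference of Dnajb1 changed sign, to 0.05. Hsf1 was lower in B16F10 by the test, at -0.36 ± 0.13 (adjusted p = 0.0467 by edgeR), although its CPM ranges overlapped, with 100 and 84.5 CPM in T cells. Dnajb6 was lower as well (-0.46 ± 0.15, adjusted p = 0.0303 by edgeR). The calls of Hsf1 and Dnajb6 ended with library totals, without a filter, with the replicate block and without any 1 B16F10 library. Hspa1a was higher in T cells, at 3.16 and 2.57 CPM, a log2 difference of -3.10 ± 0.35 (adjusted p = 4.89e-04 by edgeR), and Hspa1b higher in B16F10 (1.16 ± 0.19, adjusted p = 0.00233). Hspa1a took 30.6 and 28.8% of the pair's counts in T cells. Summed, the pair was higher in B16F10, with a log2 difference of 0.68 ± 0.18 (adjusted p = 0.0161 by edgeR).

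Per kb of merged exon, which allows genes to be set side by side, Hsp90ab1 ranked first of the 43 in both cell types, at 1333 ± 82.7 CPM per kb in B16F10 and 452 ± 83.4 in T cells (mean ± SD). In B16F10 it was followed by Hspa8 (675 ± 5.94) and Hsp90aa1 (675 ± 19.6), which did not differ beyond their spread, then Hspd1 (589 ± 11.0), Fkbp4 (481 ± 31.8) and Cryab (295 ± 19.3). In T cells Hspa8 came second (227 ± 94.2), followed by Cct2 (109 ± 23.3), Hspe1 (85.1 ± 54.6), Bag1 (81.7 ± 19.1) and Cct5 (74.3 ± 15.4). From Cct2 to Cct5, neighbours in that order overlap within their SD. Cryab, sixth in B16F10, was 41st of 43 in T cells (0.409 ± 0.303 CPM per kb). Hspa1a was last in B16F10, at 0.132 ± 0.0224 CPM per kb, and Hspb8 in T cells, at 0.127 ± 0.0962.

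**Figure D4:**
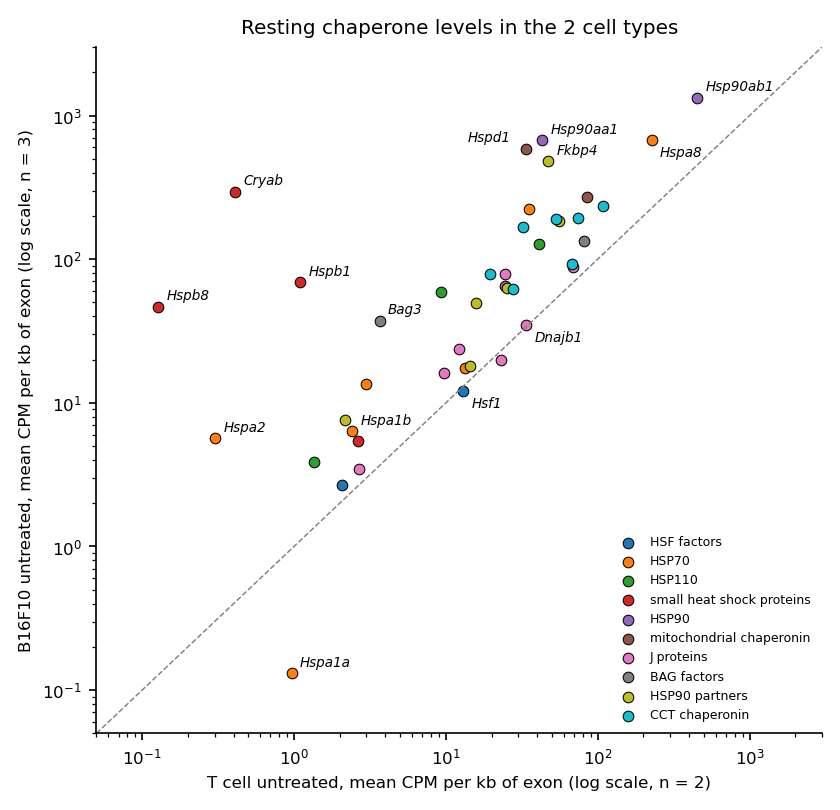
Mean CPM per kb of merged exon of the 43 chaperone genes in untreated T cells (horizontal axis, n = 2) against untreated B16F10 (vertical axis, n = 3), both on log scales; colours are families and the dashed line marks equal levels. Nearly all points lie above the line, Cryab, Hspb8 and Hspb1 furthest, and Hspa1a lies far below it.

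The T cell HOCl library was set beside the 2 untreated T cell libraries without a test, since it is 1 library. Of the 43 members, 11 were at least 2-fold above the untreated mean (25.6%) and 7 at least 2-fold below it (16.3%). Among all genes at 1 CPM or more in either, 68.5% were that far above and 12.5% that far below. The members' median log2 ratio was 0.13, against 1.90 over all those genes. A gene under 1 CPM in untreated T cells entered these figures only when the HOCl library reached 1 CPM. That by itself favours genes above, so the figures for members and for all genes are not like for like. With mitochondrially encoded genes taken out of the totals, 15 members were above (34.9%, beside 75.3% of all genes) and 0 below (beside 5.93%).

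Cryab stood at 113 CPM in that library (95% Wilson interval 107 to 119, which covers counting error only), Hspb1 at 38.4 CPM and Hspb8 at 25.8 CPM, where the untreated T cell libraries held 1.19 CPM or less of each. Hsp90aa1 was at 883 CPM against 157 and 183, Hspd1 at 417 against 83.1 and 95.7, and Bag3 at 30.7 against 8.79 and 9.96. Hspa1b was at 17.3 CPM against 7.17 and 6.35, while Hspa1a was at 1.01 CPM (13 counts) against 3.16 and 2.57. Below the untreated mean by at least 2-fold were Hspa1a, Dnajb1 (39.5 against 104 and 112 CPM), Hsf1 (39.3 against 100 and 84.5 CPM), Dnaja2, Dnajb6, Chordc1 and Cct4.

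Beside these values stand the markers. The 7 melanocyte markers, each with a count in every library, summed to 6710 CPM in the T cell HOCl library, 27% of their level in untreated B16F10, against 101 and 25.6 CPM in untreated T cells, and the 7 T cell markers to 501 CPM, 19% of their untreated T cell mean. B cell markers summed to 70.1 CPM against 18.7 and 26.2, myeloid markers to 40.2 against 9.17 and 7.87, erythroid markers to 14.1 against 1.34 and 7.93, and fibroblast markers to 36.2 against 0.981 and 1.21 CPM. As a percentage of the untreated B16F10 mean, Cryab was at 25.8, Hspd1 at 26.8, Fkbp4 at 27.6, Hspb8 at 28.3, Bag3 and Hspa9 at 32, Hsp90aa1 at 33.3, Hspb1 at 53.8, Fkbp5 at 62.1, Hspa1b at 96.9 and Hspa2 at 135 in this library. The part of the marker signal in these levels was not tested. In bulk RNA, fewer cells of a type and less RNA per cell cannot be told apart.

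**Figure D5:**
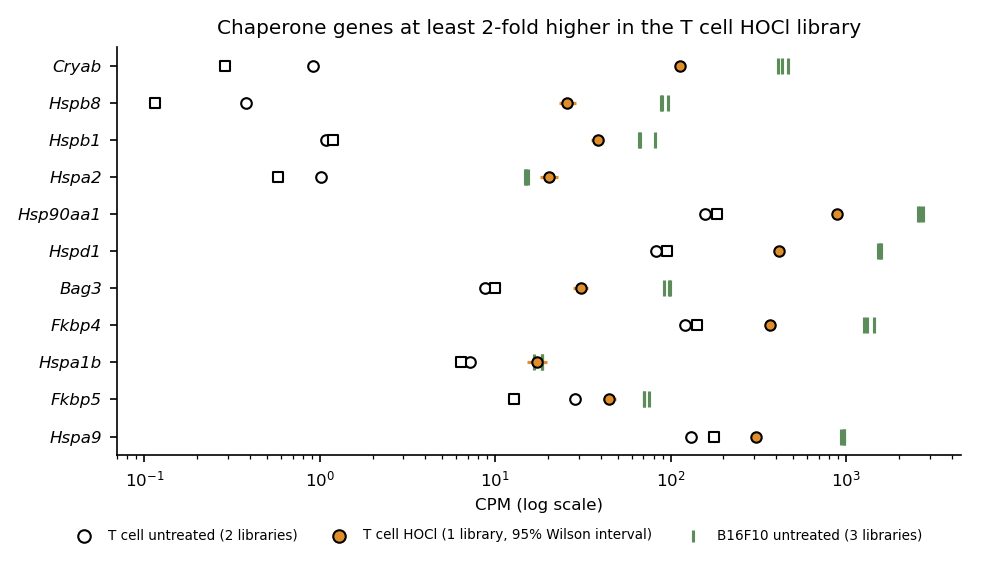
CPM (horizontal axis, log scale) of the 11 chaperone genes at least 2-fold above the untreated mean in the T cell HOCl library (filled circle, with its 95% Wilson interval), beside the 2 untreated T cell libraries (open circle and square) and the 3 untreated B16F10 libraries (vertical ticks). In 9 of the 11 genes the filled circle lies between the open symbols and the ticks, for Hspa1b it lies among the ticks and for Hspa2 beyond them.

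Heat shock element letters stood in members that rose, members that fell and members that did not pass. A 2-unit match was present in 3 of 5 genes that rose and had a promoter in the RefSeq table (Hspb1, Hspb8 and Dnajb6), in 4 of 6 that fell (Hspd1, Hspe1, Fkbp4 and Cct5) and in 9 of 24 that did not pass. Of the 5 genes with the longer element printed above, Dnajb6 rose, Hspd1 and Hspe1 fell, and Hsph1 and Chordc1 had log2 fold changes of 0.08 and -0.01 that did not pass. Hspa1a and Hspa1b, which share the same match at the same distance, had 0.70 ± 0.36 and 0.24 ± 0.13. Hspb1 carries 2 such matches and had the largest rise that passed, at 0.52 ± 0.08. With overlapping 2-unit matches counted, Dnajb6 also carries 2, at 0.17, and Chordc1 carries 5, at -0.01. Hsph1, Hspd1 and Hspe1 carry 3 each, at 0.08, -0.20 and -0.24. These counts carry no test.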

How the data were processed

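RNA-seq was analysed in 9 libraries, grouped by their titles: in B16F10, 3 untreated and 3 with HOCl, and in T cells, 2 untreated and 1 with HOCl. The authors deposited raw counts per gene without normalisation. The submitters' processing notes name build mm10, the aligner STAR 2.7.1a, the counter featureCounts 1.6.0, FastQC 0.11.8 and DESeq2 1.22.2. For the annotation release, the strand setting and the handling of multi-mapping reads, the entry is: not given in the sources used here. The authors' deposited table for B16F10 gave a log2 fold change and an adjusted p-value per gene, set beside the calls only; their T cell table was not used here.

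Counts were joined by gene ID, 54809 of 54838 IDs to GENCODE M21 (GRCm38), whose merged exons gave lengths and coordinates, 1-based. edgeR 4.0.16 in R 4.3.3 (filterByExpr, TMM, robust quasi-likelihood fit, Benjamini-Hochberg over all genes tested, threshold 0.05) was run on the 6 B16F10 libraries and, apart, on the 5 untreated libraries, where B16F10 is set against T cells. Fold changes are on the TMM scale, so they differ slightly from ratios of CPM. SE is the estimate over the root of its F value. The scripts were tested on simulated data, with 2-fold changes planted in genes at higher levels than Hspa1a in B16F10. Recovery of shifts as small as those called with HOCl in B16F10 was not tested. The T cell HOCl library has no replicate, and no test was run on it. Same-numbered libraries did not deviate together in B16F10, and whether the numbers mark a pairing is not stated.

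All members are accounted for by family; values in every library are given for members past the threshold and for Hsf1, Hspa1a, Hspa1b, Dnajb1, Hsph1, Hsp90aa1, Hsp90ab1, Hspd1, Hspe1 and Bag3, and up to 3 further chaperone genes per direction are named by size of change. The members and lists were chosen with earlier results of these data known. Also tried were other scalings (library totals, size factors of DESeq2), other filters (none, or 1 CPM with 50 mean counts), the DESeq2 1.42.0 test, 1 fit of all 9 libraries, the replicate block, leaving out each library, and the HSP70 pair summed. Wilson intervals and floors of 3 counts cover counting error only.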

Additional observations from a re-analysis of the deposited data

Results flagged for a closer look

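In 4 of the 13 chaperone genes that passed the test in B16F10, the T cell HOCl library went against the B16F10 direction. It lay outside both untreated T cell libraries, on the opposite side. The difference between the cell types was not tested, and the T cell side is 1 library. Of all genes at 1 CPM or more in that library or in the untreated mean, 68.5% were at least 2-fold above that mean. Another 12.5% were that far below. Genes under 1 CPM untreated entered only when the HOCl library reached 1 CPM, which by itself favours genes above. The share of all genes with opposite directions was not counted. Hspd1 fell in B16F10 and stood at 417 CPM in the T cell HOCl library, above 83.1 and 95.7 CPM untreated. Fkbp4 fell in B16F10 and stood at 371 CPM, above 121 and 142 CPM. Dnajb6 rose in B16F10 and stood at 66.2 CPM, below 133 and 148 CPM. Dnajb2 rose in B16F10 and stood at 38.4 CPM, close below 41.1 and 41.8 CPM. With mitochondrially encoded genes out of the totals, an alternative applied to these genes after seeing the data, Dnajb2 turned round, to 61.3 against 41.7 and 42.7 CPM, while Hspd1, Fkbp4 and Dnajb6 stayed on the same side. In that library Hspd1 and Fkbp4 were at 26.8 and 27.6% of their untreated B16F10 level, beside 27% for the summed melanocyte markers. Cct7 and Hspa8, which were not 2-fold above the untreated T cells, were at 29 and 29.7%. The part of the markers in these values was not tested.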

How the results depend on the processing

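In B16F10, a single fit of all 9 libraries ended all 13 calls. It left 0 members higher and 0 lower, beside 11 and 26 of 34290 genes. The scaling, filter and tool alternatives gave 6 to 9 higher and 5 to 7 lower, beside 7.49 to 19.1% and 7.21 to 17.4% of all genes. Leaving out 1 library at a time gave 3 to 7 higher and 4 to 8 lower, beside 9.73 to 17.1% and 8.55 to 15.9% of all genes. Of the 13 genes, 7 (Hspa8, Hspa14, Hspb1, Hspb8, Hspd1, Dnajb2 and Cacybp) kept their call in each of these 6 fits. The other 6 lost it in at least 1. Hsp90ab1, not called, ranged from -0.08 to 0.01 over these fits and reversed without untreated replicate 1. With the replicate number as a block, 8 members were higher and 7 lower, beside 17 and 16% of all genes. Dnajb4 and Hspa4l were added and none lost. Correlations of same-numbered libraries' deviations were 0.0352, -0.00347 and 0.00148, and those of differently numbered libraries ranged from -0.0402 to 0.0376. Whether the numbers mark a pairing is not stated, and these values cannot settle it. Between the untreated cell types the block gave 26 higher and 1 lower in B16F10, beside 5320 higher and 4763 lower of 18352 genes. With library totals and with no filter 1 was lower, beside 5645 of 18352 and 6906 of 33911 genes. Leaving out any 1 B16F10 library left 26 members past the threshold, beside 5344 to 5409 of all genes higher and 5588 to 5599 lower. There Hspa1a reversed to 0.68 when summed with Hspa1b, Hspa14 ranged from -0.04 to 0.39 with 1 library left out and reversed without B16F10 untreated replicate 1 (-0.00) and without T cell untreated replicate 1 (-0.04), and Dnajb1 to 0.05 with library totals, a scaling that moved the median of all genes from -0.02 to 0.22. Same-numbered B16F10 and T cell libraries, which are different cells, correlated at -0.139 and -0.13. With only 2 T cell libraries the deviations mirror each other. The swapped numbers therefore gave 0.139 and 0.13, and these values cannot show a pairing. In the T cell HOCl library 0 members were 2-fold lower without mitochondrially encoded genes in the totals, beside 5.93% of all genes. Leaving out either untreated library gave 10 to 12 higher and 4 to 8 lower, beside 67.9 to 70.2% and 11.1 to 13.3% of all genes. The limit given above for shares of all genes in this library holds here too. Hspa1a, at 15 to 42 counts per B16F10 library, is limited by depth. The causes of these changes were not tested.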
